A study of Mus musculus with 12 samples.

Results

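The genes described here are 10 genes of melanosome biogenesis and transport: Dct, Oca2, Gpr143, Rab38, Rab32, Rab27a, Mlph, Slc24a5, Myo5a and Gpnmb. They were chosen by name as pigment-organelle genes other than Tyr, Tyrp1, Slc45a2, Pmel and Mlana, and each was found among the 54146 genes counted by matching its Ensembl identifier to its symbol. All 10 passed the filter on low counts and are among the 18628 genes tested. The counts come from RNA-seq of whole mouse retina in a study of photoreceptor (PR)-specific deletion of Otx2, with 1 eye and 1 library for each of 12 mice. The RNA of this preparation includes that of the retinal pigment epithelium (RPE), the pigmented sheet behind the PRs. The groups were 3 control mice at postnatal day 30 (P30, labelled Control_Crx), and 3 Otx2 KO mice each at P32, P34 and P38 (labelled Tam2_Crx, Tam4_Crx and Tam8_Crx), which were 2, 4 and 8 d past the induction of the deletion by a single intraperitoneal dose of tamoxifen at P30. The mice were kept on a 129/SV background, and the cKO mice carried a Crx-CreERT2 transgene, whose promoter is active in PRs, with both Otx2 alleles floxed (Otx2 flox/flox). The labels call the P30 mice control without giving their alleles. Age, tamoxifen and deletion therefore changed together between P30 and the later ages, and their parts cannot be told apart.

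Melanosomes are lysosome-related organelles in which melanin is made and stored, in melanocytes and in the pigmented epithelia of the eye. Enzymes such as DCT reach the maturing organelle in vesicles guided by RAB32 and RAB38, ion carriers such as OCA2 and SLC24A5 set the conditions inside it, and GPR143 sits in its membrane and takes part in the control of melanosome size and number. In melanocytes, RAB27A on the melanosome binds melanophilin (Mlph), which recruits the motor myosin Va (Myo5a) and so ties the organelle to actin. In the RPE, melanosomes are largely made before and around birth, and the adult tissue retains them.

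Library totals were 29701483 to 60145034 counts on genes, which puts 3 counts at 0.0499 to 0.101 CPM (the count of a gene relative to all counts of its library). That floor covers counting error only. Otx2 itself had 293, 328 and 315 CPM in P30 mice 1, 2 and 3 and 307 to 377 CPM in the 9 cKO mice, but counts over the whole gene do not separate intact from deleted alleles, so they check no label, and counts per exon were not used here. The groups are therefore called as labelled, with the extent of the deletion in each mouse not analysed here. The study tabulates reads of the deleted exon relative to a neighbouring exon for each sample. In a P38 sample that ratio lay within the range of the P30 samples. The RPE marker Rpe65 was present in all 12 libraries. By their Xist counts all 3 P30 mice were female, whereas the cKO groups held 2 (P32), 1 (P34) and 1 (P38) female of 3. P30 mouse 1 stood apart from P30 mice 2 and 3 in most of the genes described here, so comparisons with P30 are also given without each P30 mouse in turn. Leaving out a mouse known to be low in these genes makes their falls larger, so the calls added without P30 mouse 1 support nothing.

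The 5′ ends of these genes are shown first. Several of the genes varied together across the mice, and a part of these sequences in that was not tested. A RefSeq window of 300 bases on GRCm38.p6, from 250 bases before the start site to 50 after it, was matched by symbol for 8 of the 10 genes, with 9 windows in all. Capitals mark the motifs searched on both strands, which did not overlap: CATGTG (reverse complement CACATG), the E-box core of MITF sites; CACGTG, the palindromic E-box; and TAATCC (reverse complement GGATTA), the core of OTX2 and CRX sites. Shown are Dct (chr14:118052197-118052496, minus strand), Oca2 (chr7:56239509-56239808, plus strand), Slc24a5 (chr2:125067877-125068176, plus strand), Mlph (chr1:90914850-90915149, plus strand) and Gpnmb (chr6:49036268-49036567, plus strand).
Dct: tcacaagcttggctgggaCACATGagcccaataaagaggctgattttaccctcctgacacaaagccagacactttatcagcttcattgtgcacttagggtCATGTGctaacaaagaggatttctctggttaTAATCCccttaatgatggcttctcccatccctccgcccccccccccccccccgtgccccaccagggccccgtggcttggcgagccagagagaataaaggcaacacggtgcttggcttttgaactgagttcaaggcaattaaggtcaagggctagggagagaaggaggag
Oca2: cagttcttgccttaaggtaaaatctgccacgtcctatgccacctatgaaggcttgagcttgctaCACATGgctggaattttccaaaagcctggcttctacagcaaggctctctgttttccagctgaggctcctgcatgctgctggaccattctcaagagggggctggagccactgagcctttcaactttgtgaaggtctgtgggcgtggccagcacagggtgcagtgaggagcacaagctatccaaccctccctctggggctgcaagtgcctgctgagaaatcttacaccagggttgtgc
Slc24a5: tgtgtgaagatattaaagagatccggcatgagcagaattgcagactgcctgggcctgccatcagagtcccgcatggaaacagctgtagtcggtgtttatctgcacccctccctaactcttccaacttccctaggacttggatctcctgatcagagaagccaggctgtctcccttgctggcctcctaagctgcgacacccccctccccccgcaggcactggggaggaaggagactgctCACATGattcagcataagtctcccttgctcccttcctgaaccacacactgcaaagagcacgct
Mlph: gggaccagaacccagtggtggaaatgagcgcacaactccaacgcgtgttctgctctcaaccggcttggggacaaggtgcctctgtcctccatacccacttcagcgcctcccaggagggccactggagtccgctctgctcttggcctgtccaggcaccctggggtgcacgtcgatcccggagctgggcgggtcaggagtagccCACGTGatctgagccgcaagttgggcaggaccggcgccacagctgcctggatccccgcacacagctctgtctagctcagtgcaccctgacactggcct
Gpnmb: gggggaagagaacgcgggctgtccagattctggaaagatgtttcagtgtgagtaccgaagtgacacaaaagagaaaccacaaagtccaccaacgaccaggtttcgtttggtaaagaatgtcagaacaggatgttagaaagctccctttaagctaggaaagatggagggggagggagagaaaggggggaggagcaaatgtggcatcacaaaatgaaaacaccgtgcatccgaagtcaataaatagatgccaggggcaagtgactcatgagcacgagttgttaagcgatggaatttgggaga

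CATGTG was found in the windows of Dct, Oca2 and Slc24a5, and in 14.2% of all 32851 windows of that length. In Dct it lay 232 and 150 bases before the start site, in Oca2 186 bases before it and in Slc24a5 13 bases before it. CACGTG, present in 7.15% of all windows, was found 48 bases before the Mlph start and 246 bases before 1 of the 2 starts of Rab27a. TAATCC, present in 7.06% of all windows, was found in the Dct window, 119 bases before the start. These letters were not in the windows of Gpnmb, Rab32 and Myo5a. A match is a description of the sequence and does not show binding.

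Across the 4 ages the members split by the mice in which they were high. Dct, Oca2, Gpr143, Rab38, Rab27a, Mlph, Slc24a5 and Gpnmb were higher in P30 mice 2 and 3 than in each of the other 10 mice, a pattern that 2.0% of all genes tested had. Myo5a had its highest levels at P34 and P38, and Rab32 was as high at P32 as at P30 in 2 of 3 mice. Ages were compared by the quasi-likelihood test in edgeR, with p adjusted over all genes tested after Benjamini and Hochberg (edgeR adjusted p). A gene was called at an adjusted p up to 0.05 where its log2 fold change was 0.5 or more in size. Every count at an unadjusted p keeps this limit of 0.5, so that genes with smaller differences are not in it.

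**Figure D1:**
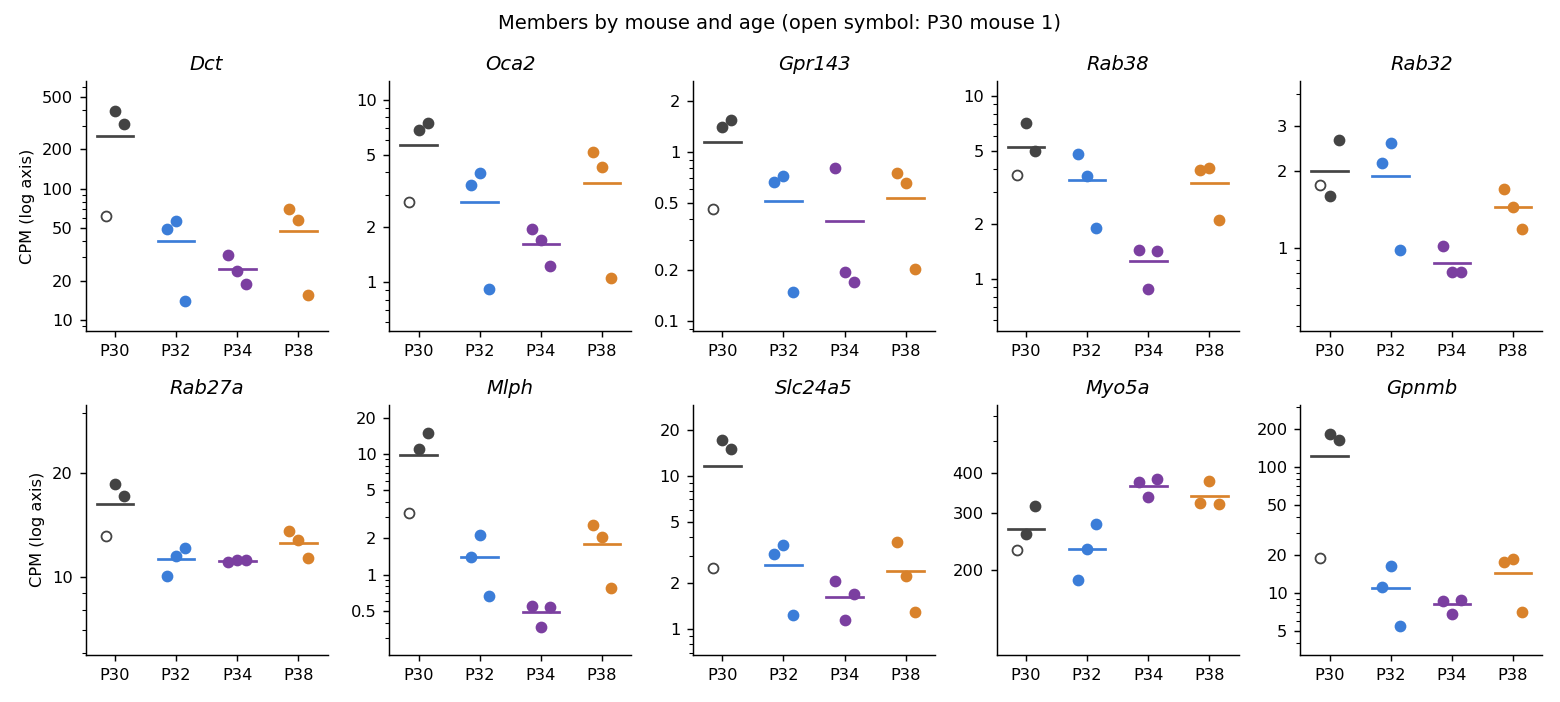
CPM of each of the 10 genes (log axes) in the 3 mice of each age, with the group mean as a bar and P30 mouse 1 as the open symbol. In Dct, Mlph, Slc24a5 and Gpnmb the filled P30 symbols lie far above all other mice, while P30 mouse 1 lies within or just above the range of the cKO mice.

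At P34, 4 d after tamoxifen, Rab38, Mlph and Gpnmb fell, and the log2 fold changes of 9 of the 10 genes were negative. These calls rest on few mice. Without P30 mouse 2 or 3 only Mlph passed, and without any 1 P34 mouse, or with a smooth muscle marker score as a covariate, 0 of the 10 genes passed by edgeR's quasi-likelihood test. Smooth muscle markers (Acta2, Myh11, Tagln and Myl9) and ciliary body and iris markers (Best2, Optc, Otx1, Zic1 and Col9a1) fell at the same age, and their part in these falls was not tested beyond that score. The call rate for lower levels over all genes tested was 0.66% (123 genes), and 0 genes (0.0%) were higher. At an unadjusted p of at most 0.05, 8 of the 10 genes were lower, against 5.42% of all genes. Over the 10 genes the median log2 fold change was -1.94, beside -0.0013 over all genes tested. All 3 P34 mice lay below all 3 P30 mice in 8 of the 10 genes, a pattern found in 9.67% of all genes tested, and above them in Myo5a, a pattern found in 10.4%. The study itself displayed or listed Dct, Oca2, Gpr143, Rab38, Rab32, Rab27a, Mlph, Slc24a5 and Gpnmb from these libraries, so their direction is not independent evidence. A panel of the study used only 2 P30 mice, and which mice these were is not given in the sources used here. In bulk RNA, fewer cells of a type and less RNA per cell cannot be told apart.

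Positions are those of GRCm38. Of the enzyme and matrix genes, Dct (ENSMUSG00000022129, chromosome 14 from 118012790 to 118052244, minus strand) encodes dopachrome tautomerase, which acts after tyrosinase in eumelanin synthesis. The Dct level was 61.7, 390.4 and 309.5 CPM in P30 mice 1 to 3. Among cKO mice it was 49.9, 56.6 and 13.97 (P32), 31.4, 23.7 and 18.9 (P34) and 69.7, 57.4 and 15.6 CPM (P38). P30 mice 2 and 3 were high, P30 mouse 1 lay within the range of the P38 mice, and P34 mice lay below all P30 mice. The log2 fold change at P34 was -3.36 ± 0.73 (SE), which did not pass (edgeR adjusted p = 0.0751). Without P30 mouse 1, 2 or 3 in turn it was -3.83, -2.91 and -3.21, and only the first of these passed. An antisense gene over Dct, 4930435M08Rik, had 0 to 38 counts in the 12 mice.

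Gpnmb (ENSMUSG00000029816, chromosome 6 from 49036546 to 49070929, plus strand) encodes a melanosomal glycoprotein related to PMEL that is also made by macrophages. The Gpnmb level was 19.1, 184 and 164 CPM in P30 mice 1 to 3. Among cKO mice it was 11.2, 16.4 and 5.47 (P32), 8.64, 6.86 and 8.801 (P34) and 17.5, 18.6 and 7.06 CPM (P38). All 9 cKO mice lay below all 3 P30 mice, although P30 mouse 1 exceeded the highest cKO mouse, P38 mouse 11, only narrowly. It fell at P34 with a log2 fold change of -3.92 ± 0.72 (SE, edgeR adjusted p = 0.03101), which was -4.42, -3.50 and -3.65 without P30 mouse 1, 2 or 3 in turn, and lost its call without mouse 2 or 3 or any 1 P34 mouse. The group means were 122 ± 89.9 CPM at P30 and 8.101 ± 1.08 CPM at P34 (SD, n = 3).

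Of the membrane carriers and receptors, Slc24a5 (ENSMUSG00000035183, chromosome 2 from 125068124 to 125088677, plus strand) encodes a potassium-dependent sodium-calcium exchanger needed for normal pigmentation. The Slc24a5 level was 2.49, 17.1 and 15.04 CPM in P30 mice 1 to 3. Among cKO mice it was 3.09, 3.54 and 1.23 (P32), 2.04, 1.15 and 1.69 (P34) and 3.69, 2.23 and 1.29 CPM (P38). P30 mouse 1 was below P32 mice 4 and 5 and P38 mouse 10, so P30 and cKO values overlapped at those ages and not at P34. The log2 fold change at P34 was -2.82 ± 0.65 (SE, edgeR adjusted p = 0.104), and without P30 mouse 1, 2 or 3 in turn it was -3.30, -2.42 and -2.60, of which only the first passed. Slc24a5 overlaps Myef2 on the opposite strand, which had 2694 to 5858 counts, and the strand setting used in counting is not given in the sources used here, so the share of Myef2 reads in the Slc24a5 counts was not tested.

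Oca2 (ENSMUSG00000030450, chromosome 7 from 56239760 to 56536518, plus strand) encodes the P protein, a melanosomal anion channel. The Oca2 level was 2.74, 6.84 and 7.46 CPM in P30 mice 1 to 3. Among cKO mice it was 3.42, 3.95 and 0.912 (P32), 1.96, 1.69 and 1.22 (P34) and 5.14, 4.29 and 1.05 CPM (P38). Its P34 values lay below all P30 values and its P32 and P38 values overlapped with P30 mouse 1. Gpr143 (ENSMUSG00000025333, chromosome X from 152781921 to 152808646, plus strand), the ocular albinism receptor of the melanosome membrane, was counted in every mouse but at 5 to 70 counts, with 0.457, 1.41 and 1.55 CPM in P30 mice 1 to 3. Its cKO levels were 0.6600, 0.724 and 0.148 (P32), 0.801, 0.196 and 0.169 (P34) and 0.752, 0.657 and 0.204 CPM (P38). Its values overlapped with P30 mouse 1 at every age. Neither passed at P34: the log2 fold change of Oca2 was -1.80 ± 0.61 (SE, adjusted p = 0.324) and that of Gpr143 -1.51 ± 0.72 (adjusted p = 0.502) in the edgeR fit. Neither passed without P30 mouse 1, 2 or 3 in turn (-2.13, -1.64 and -1.56 for Oca2, -1.91, -1.31 and -1.25 for Gpr143). Of the fits that left out 1 mouse, the one without P34 mouse 7 moved Gpr143 most, to -2.60, and it did not pass there either.

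RAB38 and RAB32 are related GTPases that guide enzyme-bearing vesicles to the maturing melanosome. Rab38 (ENSMUSG00000030559, chromosome 7 from 88430273 to 88491572, plus strand) had 3.69, 7.09 and 5.02 CPM in P30 mice 1 to 3. Its cKO levels were 4.83, 3.64 and 1.898 (P32), 1.44, 0.882 and 1.42 (P34) and 3.93, 4.06 and 2.105 CPM (P38). The 3 P34 mice were the lowest of the 12, below every P32 and P38 mouse. It fell at P34 with a log2 fold change of -2.08 ± 0.39 (SE, edgeR adjusted p = 0.0354), which was -2.28, -1.80 and -2.12 without P30 mouse 1, 2 or 3 in turn, and lost its call without mouse 2 or 3 or any 1 P34 mouse.

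Rab32 (ENSMUSG00000019832, chromosome 10 from 10545002 to 10558265, minus strand) had 1.77, 1.595 and 2.64 CPM in P30 mice 1 to 3. Its cKO levels were 2.16, 2.58 and 0.986 (P32), 1.02, 0.808 and 0.812 (P34) and 1.698, 1.45 and 1.19 CPM (P38). P34 values lay below all P30 values, and P32 mice 4 and 5 lay within the range of the P30 mice. The log2 fold change at P34 was -1.17 ± 0.35 (SE) and did not pass (edgeR adjusted p = 0.242), nor did it without P30 mouse 1, 2 or 3 in turn (-1.26, -1.31 and -0.94).

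Of the transport complex, Mlph (ENSMUSG00000026303, chromosome 1 from 90915085 to 90951142, plus strand), the linker between RAB27A and the motor, had the largest change of the 10 genes at P34. The Mlph level was 3.25, 10.98 and 15.04 CPM in P30 mice 1 to 3. Among cKO mice it was 1.41, 2.12 and 0.665 (P32), 0.552, 0.367 and 0.542 (P34) and 2.57, 2.06 and 0.781 CPM (P38). All 9 cKO mice lay below all P30 mice, and the P34 mice lay below all P32 and P38 mice. It fell at P34 with a log2 fold change of -4.32 ± 0.65 (SE, edgeR adjusted p = 0.00893), which was -4.74, -4.22 and -3.88 without P30 mouse 1, 2 or 3 in turn and passed in each. It did not pass without P34 mouse 7, 8 or 9, although its log2 fold change there stayed between -4.74 and -3.88. Nor did it pass with the smooth muscle score, where its fold change was smaller in size. The group means were 9.76 ± 5.99 CPM at P30 and 0.487 ± 0.104 CPM at P34 (SD, n = 3).

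Rab27a (ENSMUSG00000032202, chromosome 9 from 73044854 to 73097629, plus strand), the GTPase that marks the melanosome for capture, stayed between 10.1 and 18.6 CPM in all 12 mice. The Rab27a level was 13.2, 18.6 and 17.2 CPM in P30 mice 1 to 3. Among cKO mice it was 10.1, 11.5 and 12.1 (P32), 11.02, 11.2 and 11.2 (P34) and 13.6, 12.8 and 11.3 CPM (P38). P34 values lay in a narrow band below all P30 values, and P38 mouse 10 overlapped with P30 mouse 1. Its log2 fold change at P34 was -0.55 ± 0.14 (SE) and did not pass (edgeR adjusted p = 0.162), whereas without P30 mouse 1, 2 or 3 in turn it was -0.68, -0.44 and -0.52, of which only the first passed.

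Myo5a (ENSMUSG00000034593, chromosome 9 from 75071015 to 75223688, plus strand), the actin motor, which neurons also use, had 231, 259 and 316 CPM in P30 mice 1 to 3. Its cKO levels were 186, 232 and 278 (P32), 375, 337 and 382 (P34) and 323, 377 and 321 CPM (P38). Its P34 and P38 values lay above all P30 values and its P32 values overlapped with them. The log2 fold change at P34 was 0.44 ± 0.16 (SE) and did not pass (edgeR adjusted p = 0.346), nor did it without P30 mouse 1, 2 or 3 in turn (0.34, 0.41 and 0.56). Across the mice, Mlph, Rab27a and Myo5a, described above as a complex of melanocytes, thus followed different orders. Which cells of the retina held each of these RNAs was not tested.

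The calls at P34 depended on single mice and on the fit. Without P30 mouse 1, 6 genes were lower (Dct, Rab38, Rab27a, Mlph, Slc24a5 and Gpnmb), while 0.777% of all genes tested were lower. Without P30 mouse 2 (0.31% of all genes lower), and without P30 mouse 3 (0.336%), only Mlph passed. Without any 1 of P34 mice 7, 8 or 9, 0 of the 10 genes passed by edgeR's quasi-likelihood test, while 9, 8 and 8 of them in the same order were lower at an unadjusted p of at most 0.05 (4.38%, 6.88% and 4.95% of all genes). Over all genes 54, 43 and 49 were lower in these fits (0.283%, 0.226% and 0.257%). The DESeq2 Wald test with all 12 mice called Dct, Rab38, Rab27a, Mlph, Slc24a5 and Gpnmb, against 1.89% of all genes. The robust fit called Rab38 and Mlph but not Gpnmb (0.628% of all genes lower), and a fit of only the P30 and P34 mice called Dct besides Rab38, Mlph and Gpnmb (1.27%). Without a filter on low counts, over 33982 genes, Dct, Rab38, Mlph, Slc24a5 and Gpnmb passed at P34 (0.865% of these genes lower), Dct, Mlph and Gpnmb at P32 (0.05%), and Mlph and Gpnmb at P38 (0.0441%).

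**Figure D2:**
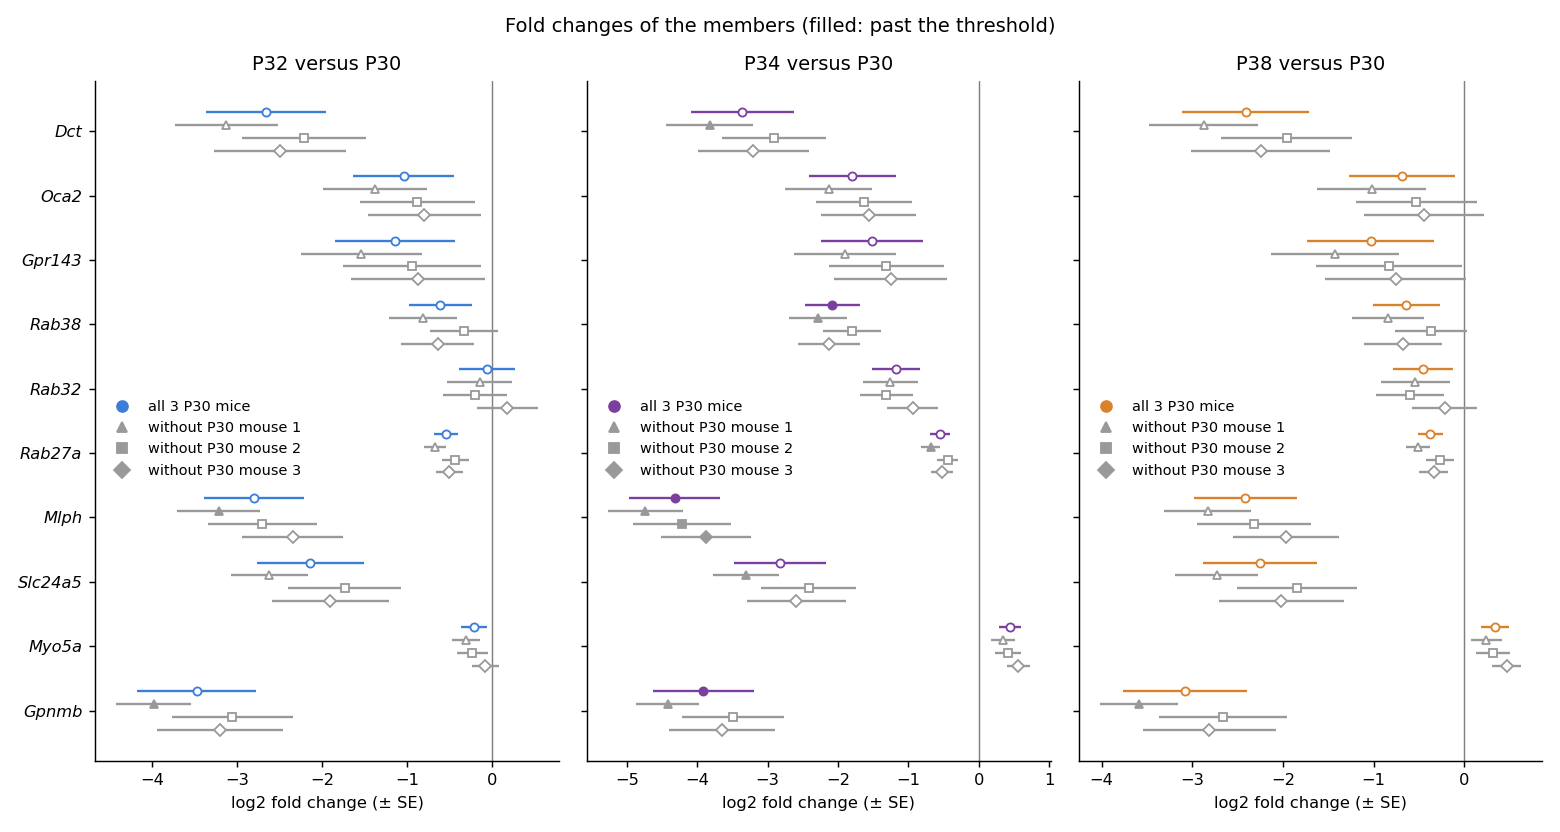
Log2 fold change ± SE of each gene at P32, P34 and P38 against all 3 P30 mice (colored circles) and without P30 mouse 1, 2 or 3 (grey triangles, squares and diamonds), with filled symbols where the call was made. Without P30 mouse 2 or 3 only Mlph at P34 is filled, whereas the triangles lie to the left of the circles in all 10 genes and are filled for Gpnmb at all 3 ages.

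The mean of P30 mice 2 and 3 over the value of P30 mouse 1 was 9.11-fold for Gpnmb, 6.45-fold for Slc24a5, 5.67-fold for Dct, 4.00-fold for Mlph, 3.23-fold for Gpr143 and 2.61-fold for Oca2. For Rab38, Rab27a, Myo5a and Rab32 the ratio was 1.64, 1.36, 1.24 and 1.20. This is a description of 3 mice with no test. Of the 9 cKO mice, all lay below P30 mouse 1 for Gpnmb and Mlph, 8 for Dct and Rab27a, 7 for Rab32, 6 for Slc24a5 and Rab38, 5 for Oca2, 4 for Gpr143 and 1 for Myo5a. Among the cKO mice themselves, the highest value over the lowest was 7.0-fold for Mlph, 4.98-fold for Dct and 1.35-fold for Rab27a.

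At P32, 2 d after tamoxifen, the log2 fold changes of all 10 genes were negative, from -3.47 for Gpnmb to -0.06 for Rab32, with a median of -1.09. None passed by edgeR's quasi-likelihood test (0.0% of all genes tested in either direction), 5 were lower at an unadjusted p of at most 0.05 (1.77% of all genes), and the DESeq2 Wald test called Mlph and Gpnmb (0.0913%). All P32 values lay below all P30 values for Dct, Rab27a, Mlph and Gpnmb, a pattern found in 4.39% of all genes tested. Without P30 mouse 1, Mlph (-3.22 ± 0.49) and Gpnmb (-3.98 ± 0.44) passed, with 0.0997% of all genes lower. Without P30 mouse 2 or 3 none of the 10 passed and 0 of all genes were called, while 4 and 5 of the 10 were lower at an unadjusted p (1.11% and 1.05% of all genes).

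At P38, 8 d after tamoxifen, the median log2 fold change was -0.86, from -3.08 for Gpnmb to 0.34 for Myo5a. None passed by edgeR's quasi-likelihood test (0.0% of all genes tested in either direction), 4 were lower at an unadjusted p of at most 0.05 with the limit of 0.5 (2.66% of all genes), which leaves out Rab27a (-0.37), and the DESeq2 Wald test called Mlph and Gpnmb (0.183%). All P38 values lay below all P30 values for Mlph and Gpnmb, a pattern found in 7.96% of all genes tested, and above them for Myo5a, a pattern found in 8.23%. Without P30 mouse 1, Gpnmb (-3.59 ± 0.43) passed, with 0.0682% of all genes lower. Without P30 mouse 2 or 3 none of the 10 passed and 0 and 1 of all genes were called lower, while 4 of the 10 were lower at an unadjusted p in each (1.96% and 2.64% of all genes).

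Among the cKO ages, Rab38 had its lowest values at P34, with a log2 fold change of -1.47 ± 0.39 (SE) from P32 to P34 and 1.44 ± 0.39 from P34 to P38. Mlph followed the same order, with -1.52 ± 0.63 and 1.91 ± 0.63. Myo5a differed the other way, by 0.65 ± 0.16 from P32 to P34. None of the 10 genes passed by edgeR's quasi-likelihood test between P34 and P32 (0.242% of all genes lower and 0.0% higher), where Rab38, Rab32 and Mlph were lower and Myo5a higher at an unadjusted p of at most 0.05 (8.93% and 5.49% of all genes). The DESeq2 Wald test called Rab38 and Rab32 lower (4.47% of all genes) and Myo5a higher (3.08%) there, and without a filter Rab38 was called lower (1.25%) and Myo5a higher (0.68%). None passed between P38 and P34 in edgeR (0.199% of all genes higher, 0.0% lower), where Rab38 and Mlph were higher unadjusted (3.01%) and the DESeq2 Wald test called Rab38 higher (0.735%). None passed in edgeR between P38 and P32 (0.0% either way), where Myo5a was higher unadjusted (5.68%) and by the DESeq2 Wald test (2.74%). All P34 values lay below all P32 values for Rab38 and Mlph (13.6% of all genes) and above them for Myo5a (14.8%), and below all P38 values for Rab38, Rab32, Rab27a and Mlph (5.36%).

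Without P32 mouse 6, Rab38 and Rab32 were lower (6.87% of all genes) and Myo5a higher (7.43%) at P34 than at P32, and Myo5a was higher at P38 than at P32 (6.52%). P32 mouse 6 had the lowest value of its age in 8 of the 10 genes, against 34.4% of all genes tested. P38 mouse 12 was the lowest of its age in all 10 genes, against 29.9% of all genes tested. For Dct these mice had 13.97 and 15.6 CPM, below all 3 P34 mice.

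With the 9 cKO mice as one group, Gpnmb fell with a log2 fold change of -3.45 ± 0.47 (SE, edgeR adjusted p = 0.02796), while 0.0537% of all genes (10 genes) were lower and 0.0% higher. At an unadjusted p with the limit of 0.5, which leaves out Rab27a (-0.48), 7 of the 10 genes were lower (1.57% of all genes), and the DESeq2 Wald test called Dct, Mlph, Slc24a5 and Gpnmb (0.225%), as did the fit without a filter (0.0765%). Mlph had -2.97 ± 0.52 (adjusted p = 0.0655), Dct -2.76 ± 0.50 (adjusted p = 0.0847) and Slc24a5 -2.37 ± 0.45 (adjusted p = 0.0991), which did not pass in the same fit of edgeR. All cKO values lay below all P30 values for Mlph and Gpnmb, against 0.478% of all genes tested. Without P30 mouse 1, Dct, Mlph, Slc24a5 and Gpnmb passed, with 0.252% of all genes lower. Without P30 mouse 2 or 3, P32 mouse 6, or any 1 P34 or P38 mouse, 0 genes passed by edgeR's quasi-likelihood test, and 4 to 8 were lower at an unadjusted p of at most 0.05, against 1.03 to 1.76% of all genes. Over all genes 0 or 1 were called lower in these fits. Adjusting for sex, an alternative added once the data had been seen, left 0.0% of all genes called lower here in edgeR, the 10 members included, and 7 of the 10 lower unadjusted (1.53% of all genes), while at P34 Dct passed besides Rab38, Mlph and Gpnmb (0.762% of all genes lower). All P30 mice were female.

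On a scale of CPM per kb of exon, on which levels of different genes can be set side by side, Dct led at P30 with 43.1 ± 29.1 CPM per kb (SD, n = 3), followed by Gpnmb with 18.8 ± 13.8 and Myo5a with 18.1 ± 2.92. The values of these 3 genes overlapped, because P30 mouse 1 was low in Dct and Gpnmb. Slc24a5 had 4.95 ± 3.39, Rab27a 4.21 ± 0.7299 and Rab38 3.34 ± 1.09 CPM per kb, which overlapped each other and lay below every Myo5a value. Mlph, Oca2, Rab32 and Gpr143 were the lowest, from 1.82 ± 1.12 to 0.571 ± 0.298 CPM per kb, with overlapping values. At P34 Myo5a led with 24.6 ± 1.65 CPM per kb (SD, n = 3), above Dct with 4.18 ± 1.08, Rab27a with 2.87 ± 0.0273 and Gpnmb with 1.24 ± 0.166, and Mlph was the lowest by its mean, with 0.0909 ± 0.0194, beside Gpr143 with 0.195 ± 0.179, which overlapped it.

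**Figure D3:**
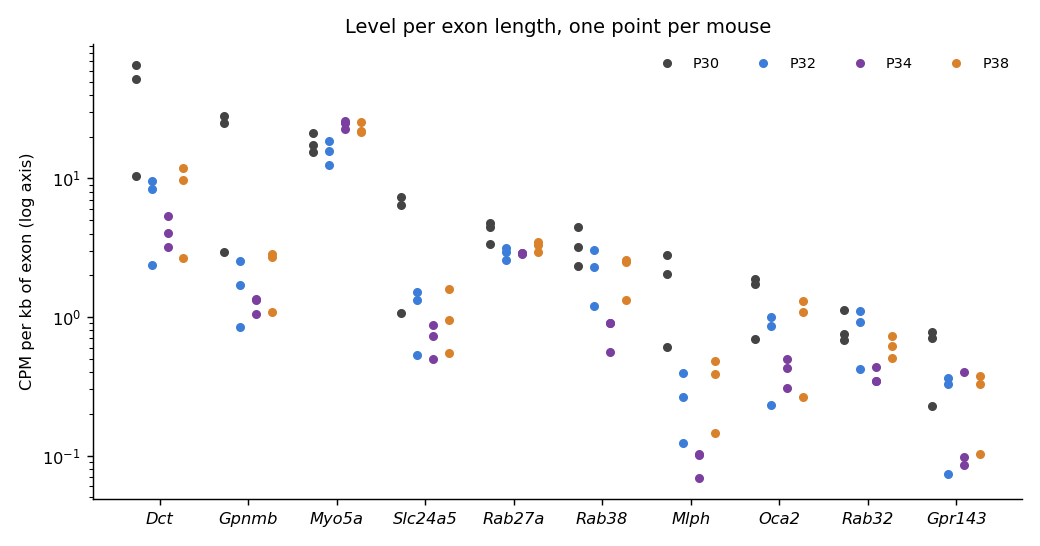
CPM per kb of exon (log axis) of the 10 genes, ordered by their mean at P30, with 1 point per mouse colored by age. Myo5a stays between 12.6 and 25.8 CPM per kb in all 12 mice, whereas Dct spans 2.37 to 66.2 CPM per kb.

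Likeness of pattern was measured as the root mean square difference of log2 CPM over the 12 mice after subtracting each gene's mean. Of all 18628 genes tested, the closest to Dct were Tspan10 (0.295), Tyrp1 (0.308), Gpnmb (0.389), Pmel (0.410) and Slc24a5 (0.416). Mlph ranked 8, Oca2 15, Gpr143 23, Rab38 66, Rab32 258, Rab27a 524 and Myo5a 15751. Among the 10 genes, Oca2 and Gpr143 were closest to each other, as were Rab38 and Rab32, Rab27a and Myo5a, and Dct and Gpnmb. The measure is small between any genes that vary little, such as Rab27a and Myo5a. Mlph was closest to Gpnmb and Slc24a5 to Dct. The points of this measure share their libraries and it is a description only.

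Tyr, Tyrp1, Slc45a2, Pmel and Mlana, the core melanogenesis genes outside the 10, all had negative log2 fold changes at P34, with a median of -3.73 and the smallest, -1.88, in Slc45a2, and Mlana (-4.42 ± 0.82, adjusted p = 0.0316) and Tyrp1 (-3.73 ± 0.69, adjusted p = 0.0316) passed in the edgeR fit. Their summed level was 54.2, 429.9 and 359.7 CPM in P30 mice 1, 2 and 3 and 14.4 to 58.9 CPM in the cKO mice. P30 mouse 1 again lay within the cKO range. Of 10 other melanosome proteins and carriers, Bace2, a protease that processes PMEL, fell (-2.91 ± 0.49, edgeR adjusted p = 0.0184), 5 had negative log2 fold changes and the median was -0.29. The lowest, Slc7a11, a cystine carrier, had -2.95 ± 0.67 and the highest, the copper carrier Atp7a, 0.35 ± 0.55, and neither passed in the edgeR fit. At P34 the DESeq2 Wald test called Slc7a11, Bace2 and Tspan10 of this list lower. It also called all 5 core melanogenesis genes lower, against 1.89% of all genes tested.

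The sorting machinery that many cell types share with pigment cells showed 0 calls in all 3 lists at P34 by edgeR's quasi-likelihood test. Of 13 subunits of the BLOC complexes, which sort cargo to lysosome-related organelles, 8 were negative, with a median log2 fold change of -0.05 and a range from -0.33 (Hps4) to 0.19 (Bloc1s5). Of 15 AP-3, HOPS and other sorting factors, 4 were negative, with a median of 0.15, from -0.22 (Ankrd27) to 0.31 (Vps18). In both lists every log2 fold change was under 0.5 in size, so that 0 genes could be called. Of 20 RAB27 partners and melanosome motors, 8 were negative, with a median of 0.06, 3 were lower at an unadjusted p (5.42% of all genes), and the range ran from -2.24 for Sytl4 (0.2997 to 0.424 CPM at P30 and 0.0276 to 0.102 at P34, at the level of a few counts) to 1.03 for Sytl5. The DESeq2 Wald test also called 0 genes in these 3 lists.

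Markers of other cell types that the dissection could hold were set beside the 10 genes. The RPE markers summed to 138, 102 and 223 CPM in P30 mice 1 to 3, and to 162, 169 and 103 (P32), 180.3, 131 and 120.0 (P34) and 202, 147 and 121 CPM (P38) in the cKO mice. P30 mouse 2, which had the highest Dct of all mice, had the lowest summed RPE markers. Rpe65, the retinoid isomerase of the RPE, had 13.2, 5.59 and 21.5 CPM at P30 and 20.2, 17.3 and 12.97 CPM at P34. Of 10 RPE markers, Cldn19 fell at P34 (-2.99 ± 0.28, edgeR adjusted p = 0.000522), and the median log2 fold change was -0.06, with the highest, 0.33, in Rpe65. Cldn19, Optc, Best2 and Col9a1 were also called lower at P34 than at P32, Cldn19, Optc and Best2 higher at P38 than at P34, and Myh11, Tagln and Myl9 lower in all cKO mice.

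Smooth muscle markers were high in the same P30 mice as Dct. They summed to 29.5, 182 and 198 CPM in P30 mice 1, 2 and 3 and to 9.33 to 48.7 CPM in the cKO mice, and Myh11, the smooth muscle myosin, had 2.65, 46.7 and 53.2 CPM at P30 and 0.863 to 3.07 CPM in the cKO mice. Acta2, Myh11, Tagln and Myl9 fell at P34, with a median log2 fold change of -3.51 over the 5 markers tested, from -4.73 (Acta2) to -0.22 (Des), whereas Cnn1 and Actg2 were too low to test and Actg2 was at 0 in all P34 mice. Several of these markers, and of those of the ciliary body and iris, were displayed or listed by the study from the same libraries. Ciliary body and iris markers summed to 198 to 222 CPM at P30, and to 123 to 239 (P32), 49.1 to 55.2 (P34) and 113 to 163 CPM (P38) in the cKO mice, and Best2, Optc, Otx1, Zic1 and Col9a1 of 6 fell at P34, from -5.95 (Best2) to -1.18 (Col9a1). Their sums did not separate P30 mouse 1 from P30 mice 2 and 3.

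**Figure D4:**
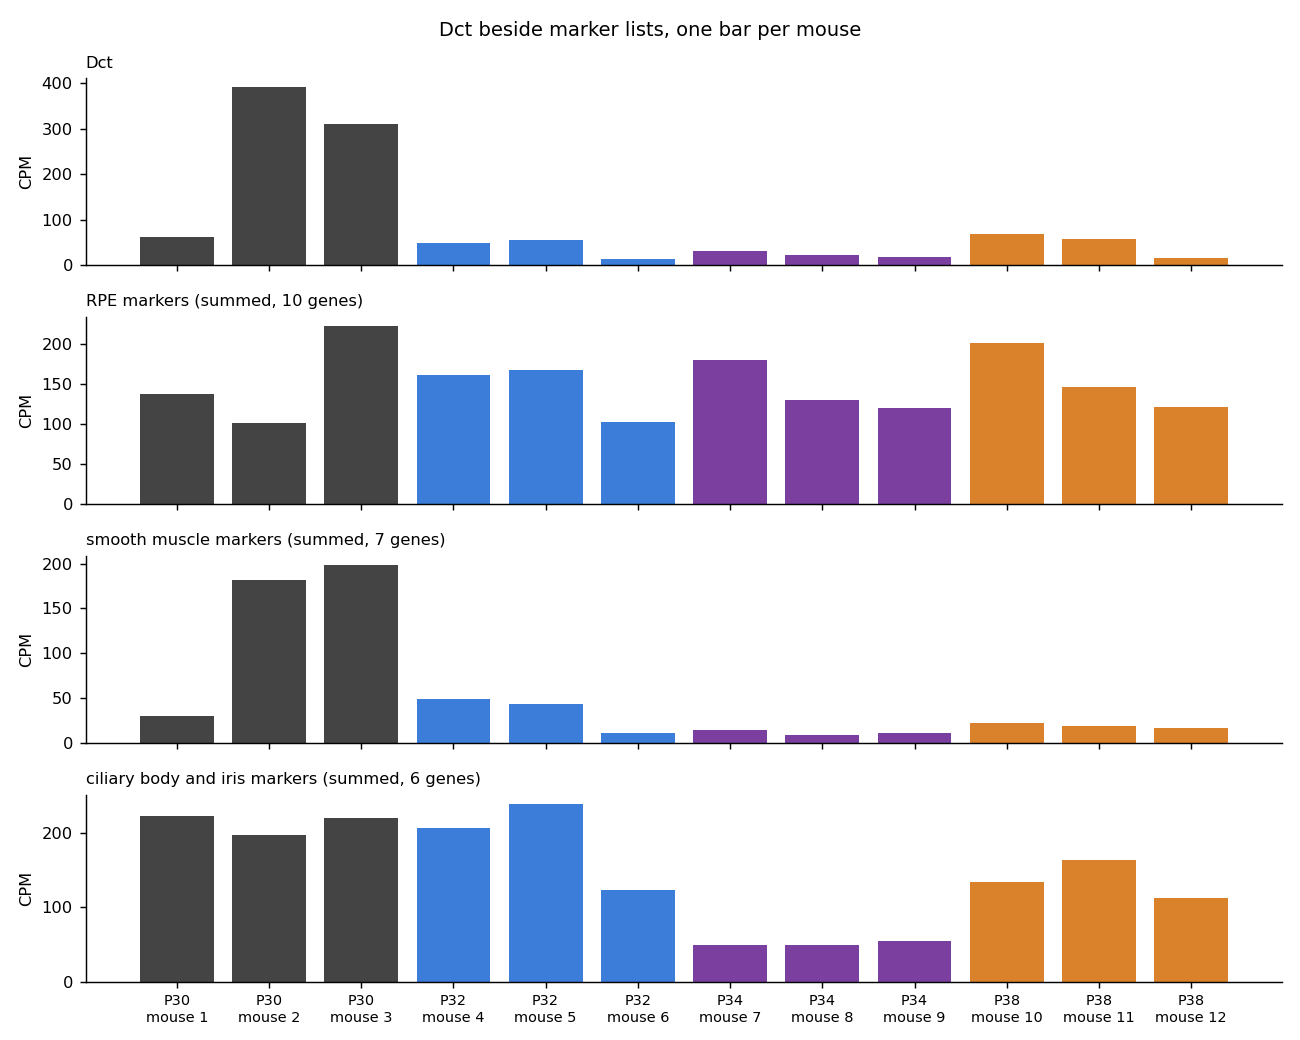
CPM of Dct and summed CPM of the RPE, smooth muscle, and ciliary body and iris markers, with 1 bar per mouse and linear axes from 0. Dct and the smooth muscle sum are high in P30 mice 2 and 3, the RPE sum is not, and the ciliary body and iris sum is lowest in the 3 P34 mice.

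Of 5 melanocyte markers, 0 passed at P34 by edgeR's quasi-likelihood test, at an unadjusted p or by the DESeq2 Wald test. The median was -0.06, and the log2 fold changes ran from -0.72 (Sox10) to 0.20 (Mc1r). Sox10, a gene of the neural crest melanocyte lineage, had 0.545 to 1.34 CPM at P30. The list also holds Mitf, which the study names as RPE-specific, so its median does not measure melanocytes alone. Of 10 microglia and macrophage markers, Mrc1 fell (-2.69 ± 0.43, edgeR adjusted p = 0.0141) and the median was -0.10, with the highest, 0.43, in Cx3cr1. The medians of 8 rod and 9 retinal neuron markers were 0.15 and 0.29, and every log2 fold change in both lists was under 0.5 in size, so that 0 genes could be called. The neuron markers ran from -0.27 (Trpm1) to 0.46 (Nefl). Lens markers summed to 11376, 532 and 39457 CPM in P30 mice 1 to 3, and to 749 to 45771 (P32), 279.8 to 765 (P34) and 5319.5 to 13674 CPM (P38) in the cKO mice, and their median log2 fold change at P34 was -4.97, from -7.89 (Mip) to -4.51 (Bfsp1), with 0 calls by edgeR's quasi-likelihood test and 8 of 8 lower at an unadjusted p (5.42% of all genes), while the DESeq2 Wald test called 7. The parts of these tissues in the levels of the 10 genes were not tested, apart from the fits with a marker score that follow.

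With the mean log2 CPM of the RPE markers as a covariate, Mlph and Gpnmb passed at P34 (0.612% of all genes lower), with log2 fold changes of -4.03 and -3.76, and Rab38 (-2.03) did not. With the mean log2 CPM of the smooth muscle markers as a covariate, 0 of the 10 genes passed at P34 by edgeR's quasi-likelihood test (0.0429% of all genes lower), and Mlph was lower at an unadjusted p (1.73% of all genes). The fold changes of that fit were -1.82 for Mlph, -1.02 for Rab38, -0.16 for Dct, -0.04 for Gpnmb and 0.51 for Slc24a5. The smooth muscle score averaged all 7 listed markers, with Cnn1 and Actg2, which were too low to test. The score itself differed between P30 and P34, so that age and score cannot be told apart in that fit. For all cKO mice, Dct, Mlph and Gpnmb passed with the RPE score (0.0913% of all genes), and with the smooth muscle score 0 of the 10 and 0.0% of all genes were called lower by edgeR's quasi-likelihood test.

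**Figure D5:**
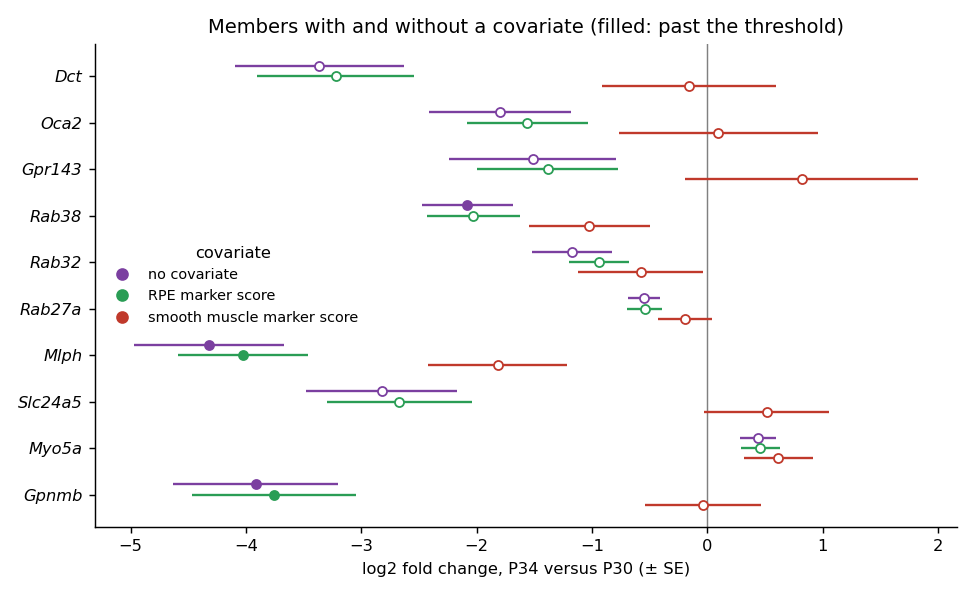
Log2 fold change ± SE of the 10 genes at P34 against P30 without a covariate, with the RPE marker score and with the smooth muscle marker score as a covariate, filled where the call was made. With the RPE score the fold changes stay near those without a covariate (-3.76 for Gpnmb), while with the smooth muscle score Dct and Gpnmb lie near 0 and Mlph at -1.82.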

How the data were processed

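RNA of whole retina was sequenced from 12 mice as 1 library per mouse. Per the labels and the study's methods, the authors used bcl2fastq 2.17.1.14, mapped reads to mm10 with STAR 2.5.3a and counted them on Ensembl 93 genes with HTSeq 0.6.1p1. The authors deposited raw counts per gene, with no normalization. The strand option is not given in the sources used here, and reads without a unique position (23.7 to 32.2%) were not counted.

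Symbols and GRCm38 positions came from GENCODE M21, which named 54079 of 54146 genes (99.9%). Lines of the files that name no gene were left out of library sizes and tests. CPM were computed with TMM scaling in edgeR 4.0.16 (R 4.3.3), genes were kept by edgeR's filter over the 4 ages, and all 12 mice entered 1 quasi-likelihood fit. A comparison of the 9 cKO mice with P30 used a separate fit with 2 group means. Adjustment of p followed Benjamini and Hochberg. Tables and figures were made with Python 3.11.15, pandas 2.3.3, numpy 2.4.6 and matplotlib 3.10.9. The fits were tested on simulated counts drawn with 10 seeds and judged by median error, sign and the share of false calls. These measures replaced a limit on the number of genes recovered, which was missed at 1 seed. Libraries of one age differed beyond counting noise in every pair (chi-square over genes, per degree of freedom, 19.7 to 254), so all were counted separately.

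The 10 members, the 13 other lists and the alternatives were chosen with earlier results of these data known. The genes named are all 10 members, and in each list those called in any comparison by the main edgeR fit. Also named are those with the lowest and highest log2 fold change at P34 and the genes closest in pattern to Dct. Genes of the lists called only by the DESeq2 Wald test were not all named. Levels of Otx2, Rpe65, Sox10, Myh11 and genes overlapping a member are given besides. The lowest and highest rod markers are not reported here. Alternatives were DESeq2 size factors, the DESeq2 1.42.0 Wald test, other filters, a robust fit, a fit of only the ages compared, an unadjusted p, RPE and smooth muscle marker scores as covariates, and leaving out each mouse. Sex as a covariate, read from Xist counts, was added after seeing the data.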

Additional observations from a re-analysis of the deposited data

How the results depend on the processing

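All counts here are of the 10 members past the threshold, and those at an unadjusted p keep the limit of 0.5 on the log2 fold change. Percentages are of all genes lower in the same fit. At P32 (0 in the report) there were 2 by the DESeq2 Wald test (0.0913%), 3 without a filter on low counts (0.05%) and 5 at an unadjusted p (1.77%). At P34 (3) there were 6 by the DESeq2 Wald test (1.89%), 5 without a filter (0.865%), 8 at an unadjusted p (5.42%), 4 with only the ages compared (1.27%), 2 in the robust fit (0.628%), 2 with the RPE score (0.612%) and 0 with the smooth muscle score as a covariate (0.0429%). At P38 (0) there were 2, 2 and 4 by the DESeq2 Wald test (0.183%), without a filter (0.0441%) and at an unadjusted p (2.66%). Between P34 and P32 (0) the same settings gave 3, 2 and 4 (4.47%, 1.25% and 8.93%, with 3.08%, 0.68% and 5.49% higher). Between P38 and P34 (0) the DESeq2 Wald test gave 1 and the unadjusted p 2 (0.735% and 3.01% higher), and between P38 and P32 (0) each gave 1 (2.74% and 5.68% higher). For all cKO mice (1) there were 4 by the DESeq2 Wald test (0.225%), 4 without a filter (0.0765%), 3 with the RPE score (0.0913%), 7 at an unadjusted p (1.57%), and 0 with the smooth muscle score or with sex as a covariate (0.0% in both). Leaving out 1 mouse at a time gave 0 to 2 at P32, 0 to 6 at P34, 0 to 1 at P38, 0 to 3 between P34 and P32, 0 to 1 between P38 and P32 and 0 to 4 for all cKO mice. The cause of these shifts was not tested.

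With the smooth muscle score as a covariate, 28 of 70 log2 fold changes changed sign. They were Oca2 0.27, Gpr143 0.53, Rab38 0.14, Rab32 0.35 and Slc24a5 0.32 at P32, and Oca2 0.10, Gpr143 0.82 and Slc24a5 0.51 at P34. At P38 they were Dct 0.14, Oca2 0.80, Gpr143 0.84, Rab38 0.19, Rab32 0.0030, Slc24a5 0.44 and Gpnmb 0.044. Between P34 and P32 they were Dct 0.23, Gpr143 0.29, Rab27a 0.074, Slc24a5 0.19 and Gpnmb 0.55, between P38 and P34 Slc24a5 -0.077, and between P38 and P32 Rab38 0.054 and Slc24a5 0.11. For all cKO mice they were Oca2 0.55, Gpr143 0.65, Rab38 0.26, Rab32 0.29 and Slc24a5 0.36. With the RPE score Rab32 changed sign at P32 (0.087), and Dct (-0.025) and Gpr143 (-0.25) between P38 and P32. Adjusting for sex, added once the data had been seen, Dct (-0.25), Oca2 (-0.17) and Gpr143 (-0.43) did so between P38 and P32, and with only the ages compared Rab27a did so between P34 and P32 (0.014). DESeq2 size factors, the DESeq2 Wald test, both other filters and the robust fit turned no sign.

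Leaving out 1 mouse turned signs only of small log2 fold changes: Rab32 at P32 ranged from -0.35 to 0.25, Rab27a between P34 and P32 from -0.085 to 0.048, and between P38 and P32 Dct ranged from -0.16 to 0.66, Oca2 from -0.066 to 0.78, Gpr143 from -0.33 to 0.47, Rab38 from -0.32 to 0.29 and Slc24a5 from -0.56 to 0.18. Gpr143 could not be tested under a filter of 1 CPM in 3 libraries. Depth limits Gpr143 most, with 5 counts in its lowest mouse. Every P30 mouse was labelled control and every later mouse Otx2 KO, so age, tamoxifen and deletion cannot be told apart. No paired analysis was possible because each mouse has a number of its own.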
